A study of Mus musculus with 9 samples.

Results

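The collagen chain genes of 6620c1, a cell line from a mouse pancreatic tumor, were followed over 14 days of culture under nutrient and oxygen deprivation. Members were all rows of the gene table whose symbol has the form of a collagen chain (Col, a type number, a, and a chain number). The rule found 44 such rows among 24493, and 13 of them reached at least 1 TPM in at least 3 samples and could be tested. TPM is a measure of transcript abundance that takes transcript length into account and sums to 1000000 in every library. RNA was sequenced from 3 samples at day 0, 3 at day 2 and 3 at day 14. The growth medium given for all 9 samples, day 0 included, was DMEM in which glucose was 2.5 mM, fetal calf serum 0.5% and the amino acids 20% of standard, and the labels name no further treatment. The column names mark all 9 samples WT, a prefix the labels do not explain. The labels give neither the medium before day 0 nor the oxygen level. All samples come from this cell line, no sample was kept for the same time without deprivation, and deprivation and time in culture therefore cannot be told apart. It is not said whether the 3 samples of a day came from separate cultures, so a p-value here reflects only how these samples spread, and that spread may be technical.

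Collagens are secreted proteins in which chains rich in glycine and proline wind around each other into a helix. Fibrillar collagens assemble into the cables of connective tissue. Type IV collagens form the sheet-like network of the basement membrane on which epithelial cells rest, and the other types link, cover or anchor these structures or span the cell membrane. Prolyl and lysyl hydroxylases, enzymes that need oxygen, modify the chains before secretion. In pancreatic tumors most of the fibrillar collagen is made by fibroblasts and stellate cells, whereas epithelial cells contribute to the basement membrane.

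The library labels were checked against marker genes. Ductal epithelial markers were abundant as a sum of 8 genes, at 10796 to 11448 TPM at day 0, 5483 to 7611 at day 2 and 6808 to 8580 at day 14. The keratin genes Krt7, Krt8, Krt18 and Krt19 made up most of this sum. Epcam had means of 2.23, 0.686 and 14.1 TPM on days 0, 2 and 14, and Cldn4 had 0.257, 0.190 and 1.34. The keratin means were lower at day 14 than at day 0, and those of Epcam, Cldn4, Cdh1 and Sox9 higher. Of 12 markers of fibroblasts and stellate cells, 9 stayed below 1 TPM in every library, including Dcn, Lum and Pdgfrb. Fbln1, Acta2 and Pdgfra reached at most 11.4, 3.47 and 2.81 TPM. The sum of the list was 8.68 to 12.2 TPM at day 0, 3.67 to 5.32 at day 2 and 5.79 to 14.1 at day 14. All 6 endothelial markers stayed below 1 TPM in every library, and 5 of 7 leukocyte markers did, among them Ptprc. The leukocyte list, mostly through Cd68 and Csf1r, summed to 2.29 to 2.63 TPM at day 0, 3.73 to 5.39 at day 2 and 9.76 to 13.8 at day 14. Changes were tested with limma on log2(TPM + 1), a scale that understates the change of low genes, with p-values adjusted over all 12693 rows tested and calls at an adjusted p under 0.05. Over all tested genes the median log2 fold change stood at -0.02 for day 2 against day 0, 0.22 for day 14 against day 0 and 0.25 for day 14 against day 2. Scaling the libraries by the median of gene ratios moved these medians to 0.02, 0.02 and 0.00. That scaling turned the calls for day 14 against day 2 from 3474 higher and 481 lower to 1658 and 1408, and those for day 14 against day 0 from 4601 and 2389 to 3458 and 3651. Removal of the 20 most abundant rows moved the median at day 2 to 0.15 and the calls there from 3438 higher and 4046 lower to 4563 and 3457. The row Mir6236 took 8.27% to 11.3% of TPM at day 0 and 13.2% to 22.5% at day 2, most in day 2 replicate 3. At day 14 it took 11.0% to 13.7%. A larger share for this row leaves less of the fixed total to all others. Read totals cannot be had from TPM, so depth is unknown. In bulk RNA, fewer cells of a type and less RNA per cell cannot be told apart.

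Type IV genes, taken as the basement membrane class, gave the largest part of collagen message in every library. Summed over the 44 genes, collagen came to 357 ± 8.37, 219.6 ± 37.3 and 279 ± 14.5 TPM on days 0, 2 and 14 (SD, n = 3). The libraries ranged from 347 to 363 TPM at day 0, from 177 to 246 at day 2 and from 268 to 295 at day 14. The days thus did not overlap in TPM, but after median-of-ratios scaling the day 2 and day 14 libraries did. Col4a1, Col4a2 and Col18a1 made up 90.3% ± 0.189 of the sum at day 0, 82.4% ± 1.08 at day 2 and 77.5% ± 0.524 at day 14. The type IV genes gave 249 ± 8.50, 118 ± 15.2 and 175 ± 4.57 TPM on days 0, 2 and 14. Their share of collagen TPM was 69.9%, 54.3% and 62.9%, and lowest in day 2 replicate 1, at 48.2%. Fibrillar genes gave 17.6 ± 0.135, 15.002 ± 3.25 and 23.7 ± 1.07 TPM on the same days, and their share of collagen TPM was 4.95%, 6.79% and 8.55%. The remaining classes gave 89.6 ± 5.62, 86.5 ± 23.6 and 79.9 ± 12.4 TPM, most of it from Col18a1. No test was made on these sums.

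**Figure D1:**
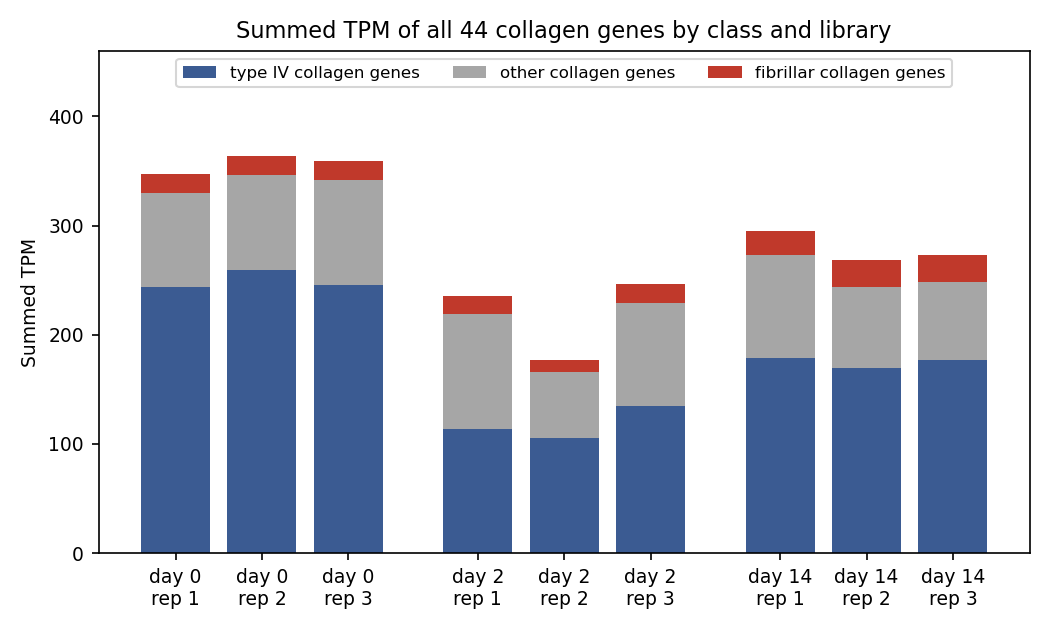
Summed TPM of the 44 collagen genes in each of the 9 libraries, stacked by class (type IV, other, fibrillar). The day 0 libraries reach 347 to 363 TPM, the day 2 libraries 177 to 246 and the day 14 libraries 268 to 295, and the type IV part is the tallest in every bar.

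Among the 13 tested genes, 3 rose and 5 fell at day 2 against day 0, where 27.1% of all tested genes rose and 31.9% fell. At day 14 against day 0, 4 were higher and 2 lower, against 36.2% and 18.8% of all. At day 14 against day 2, 6 were higher and none was lower by limma, nor was any lower at an unadjusted p under 0.05, against 27.4% and 3.79% of all. The share called at day 2, 8 of 13, was near the 59.0% of all tested genes, and so was the 6 of 13 at day 14 beside 55.1%. At day 14 against day 2, 31.2% of all were called. The libraries of 2 days did not overlap for 3 higher and 6 lower genes at day 2, against 31.7% and 34.8% of all, for 5 and 3 at day 14, against 43.2% and 23.3%, and for 7 and 0 at day 14 against day 2, against 35.1% and 6.11%. The median log2 fold change of the 13 was -0.29, 0.41 and 0.45 in the 3 comparisons. Col20a1 and Col11a2 passed the expression filter only through their day 2 and day 14 values. Col4a3 and Col4a4 passed it only through their day 0 and day 14 values. Col7a1 passed only through its day 0 values and 1 day 14 library. The calls of all these genes are therefore no support for the counts. Col8a1, just under the filter, reached 1 TPM in 1 library.

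**Figure D2:**
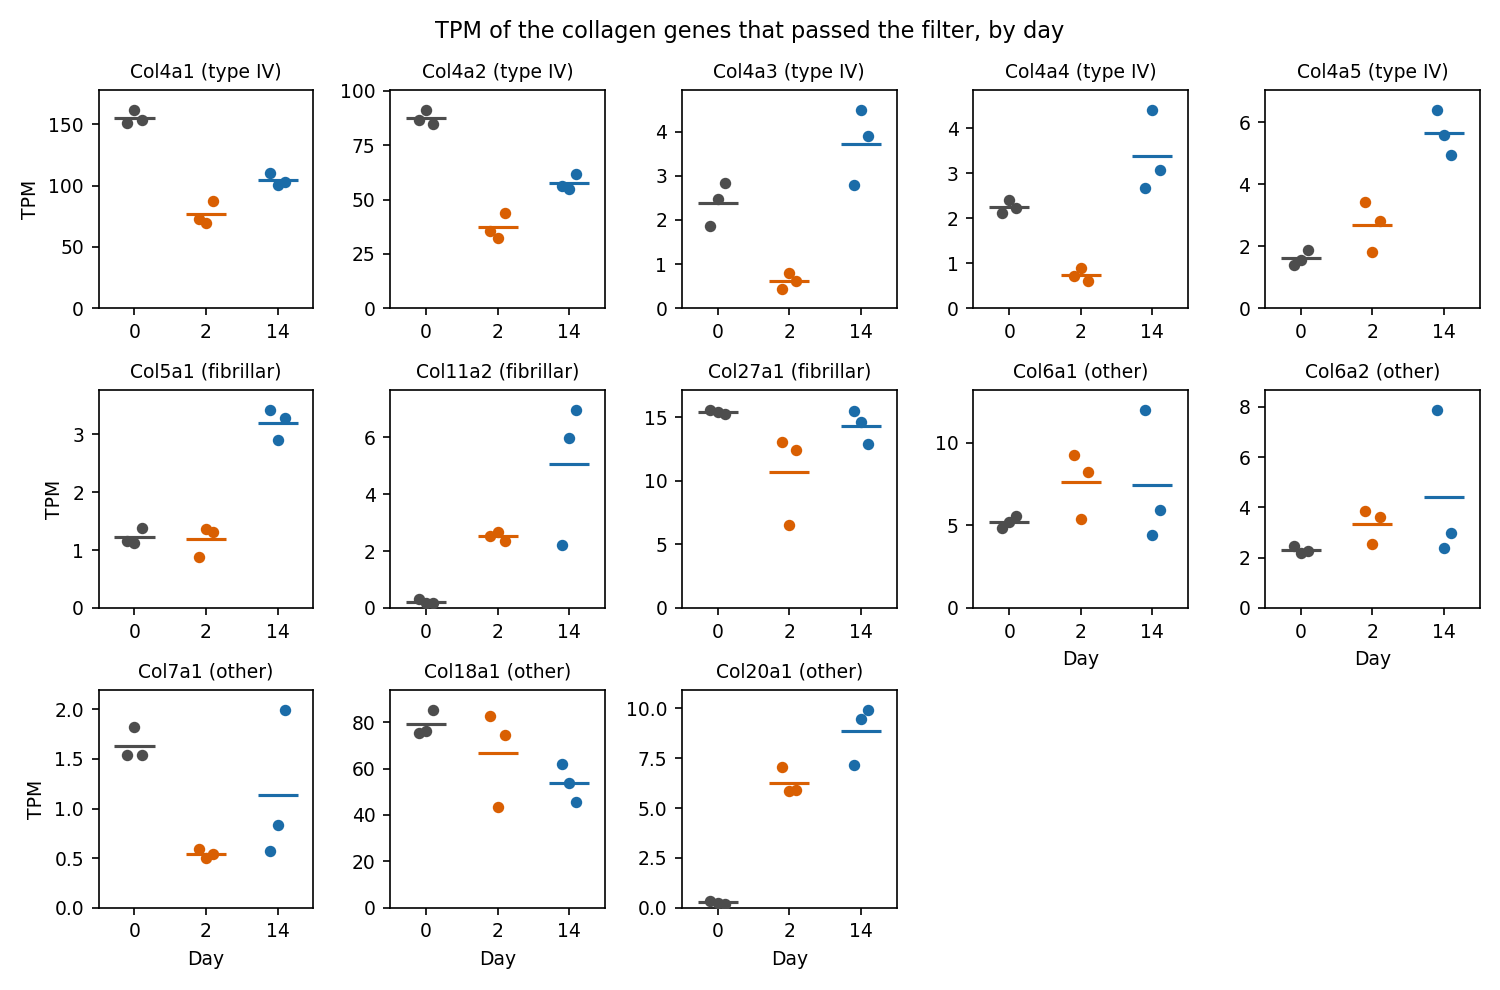
TPM of each of the 13 collagen genes that passed the filter, by day. Points are libraries (3 per day), lines are means, each panel has its own axis from 0. Col4a1 and Col4a2 are lowest at day 2, Col4a3 and Col4a4 dip below 1 TPM at day 2, and Col20a1 and Col11a2 leave values near 0 at day 0.

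Col4a1 and Col4a2 code for the chains of the main basement membrane network, and Col4a1 had the highest mean of all collagen genes on each day. It stood at 152, 162 and 154 TPM in the day 0 libraries, at 73.2, 69.9 and 87.3 TPM at day 2 and at 111, 101 and 103 TPM at day 14. The highest day 2 library lay below the lowest day 14 library, and all day 14 libraries lay below day 0. The log2 fold change was -1.02 at day 2 (SE 0.10, limma, adjusted p = 3.91e-05) and -0.57 at day 14 (SE 0.10, limma, adjusted p = 0.00162). Col4a2, whose product joins that of Col4a1 in the same helix, stood at 86.7, 91.1 and 84.7 TPM at day 0, at 35.7, 32.2 and 43.7 TPM at day 2 and at 56.2, 54.9 and 61.8 TPM at day 14. Its groups were ordered in the same way without overlap. The log2 fold changes were -1.22 at day 2 (SE 0.12, limma, adjusted p = 3.34e-05) and -0.60 at day 14 (SE 0.12, limma, adjusted p = 0.00288).

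From day 2 to day 14 both genes were higher by the fit, Col4a1 by 0.45 and Col4a2 by 0.63 on the log2 scale (limma, adjusted p = 0.0111 and 0.00495), while the median of all genes stood at 0.25. Median-of-ratios scaling ended these calls, at 0.18 for Col4a1 (limma, adjusted p = 0.337) and 0.36 for Col4a2 (adjusted p = 0.102), as did quantile normalization (adjusted p = 0.303 and 0.0912). Removing the 20 most abundant rows ended the call of Col4a1 as well (adjusted p = 0.0822). The fall at day 2 and the lower level at day 14 against day 0 were called under each of these scalings.

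Col4a1 and Col4a2 lie head to head and start 21 bases apart on opposite strands of chromosome 8 in RefSeq's annotation of GRCm38.p6. Their windows of 250 bases before to 50 bases after the start share 78 bases. Because the genes overlap at these ends and no strand setting of the counting is given, reads from the overlap cannot be assigned. Stretches around the motif matches are shown because these 2 genes fell together and start close to each other. None of the matches lies wholly within the 78 shared bases. Each stretch is 30 bases from RefSeq, with the matched motif in capitals. The motif is a CCAAT box (ATTGG on the other strand) or GCGTG, a core of the sequence bound by HIF, the transcription factor of the low-oxygen response.
Col4a2 CCAAT, chr8:11312761-11312790, plus strand: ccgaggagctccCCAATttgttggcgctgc
Col4a1 CCAAT, chr8:11312954-11312983, minus strand: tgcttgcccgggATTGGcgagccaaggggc
Col4a2 GCGTG, chr8:11312688-11312717, plus strand: cggagggcccggGCGTGagccctgctcacc
Col4a1 GCGTG, chr8:11312980-11313009, minus strand: ctctcggccccgGCGTGccttgctggtgct
The first base of the match lies 32 and 105 bases before the Col4a2 start and 145 and 171 bases before the Col4a1 start, each counted on the gene's own strand. CCAAT was found on either strand in 37.4% of all 32851 RefSeq promoter windows and GCGTG in 32.4%, so a match here is a description and not a binding site.

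A second head-to-head pair, Col4a3 and Col4a4, coding for chains of the specialised basement membranes of kidney and lung, was expressed at a few TPM. Col4a3 had 1.86, 2.48 and 2.84 TPM in the day 0 libraries, 0.437, 0.797 and 0.606 in those of day 2 and 2.79, 4.48 and 3.89 in those of day 14. Every day 2 library lay below every library of the other days. The log2 fold change was -1.07 at day 2 (SE 0.19, limma, adjusted p = 0.000987), and 1.54 at day 14 against day 2 (SE 0.19, limma, adjusted p = 0.000458). Col4a4 followed at 2.12, 2.40 and 2.24 TPM in the day 0 libraries, 0.721, 0.892 and 0.600 in those of day 2 and 2.68, 4.40 and 3.07 in those of day 14. It fell by 0.91 on the log2 scale at day 2 (SE 0.17, limma, adjusted p = 0.00136) and was 1.32 higher at day 14 than at day 2 (SE 0.17, limma, adjusted p = 0.000586). The day 14 calls against day 2 held under the 3 scalings named above. Both genes passed the filter only through their day 0 and day 14 values.

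At day 14 against day 0 the values were 0.47 for Col4a3 and 0.41 for Col4a4 on the log2 scale, and neither passed (limma, adjusted p = 0.0554 and 0.0603). Without day 14 replicate 1, the lowest of that day for Col4a3, the adjusted p was 0.0215 for Col4a3 and 0.0315 for Col4a4. A stretch upstream of Col4a4 is shown because this gene and its neighbour moved together; the capitals mark ACGTG, another HIF core, whose first base lies 84 bases before the start, in 30 bases of the minus strand.
Col4a4 ACGTG, chr1:82586916-82586945, minus strand: gggtgcaggtcaACGTGaggaatttagggg
The third type IV pair differed in level. Col4a5, the partner of the Col4a3 and Col4a4 chains in one network, had 1.40, 1.55 and 1.88 TPM in the day 0 libraries, 3.41, 1.82 and 2.82 in those of day 2 and 6.38, 5.59 and 4.95 in those of day 14. All day 14 libraries lay above all others, whereas a day 2 library fell inside the day 0 range. At day 14 it was 1.35 above day 0 on the log2 scale (SE 0.18, limma, adjusted p = 0.000369) and 0.87 above day 2 (SE 0.18, limma, adjusted p = 0.00781), the latter lost under quantile normalization (adjusted p = 0.0947). The rise at day 2, 0.48 on the log2 scale (SE 0.18, limma, adjusted p = 0.0488), was lost without any of the 3 day 0 libraries, day 2 replicates 1 or 3, or any of the 3 day 14 libraries, at adjusted p from 0.0512 to 0.162, and under quantile normalization (adjusted p = 0.29). Col4a6, its neighbour on chromosome X with a start 1343 bases away, never passed 0.163 TPM.

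**Figure D3:**
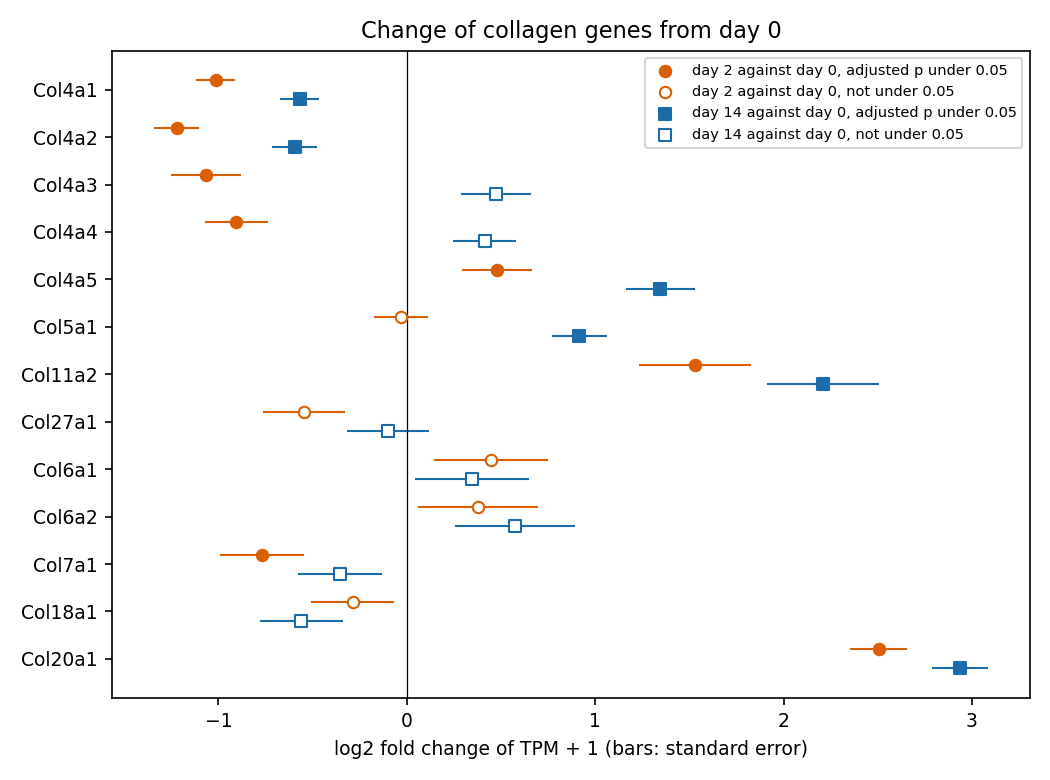
Log2 fold change on the log2(TPM + 1) scale of the 13 tested collagen genes at day 2 (circles) and day 14 (squares) against day 0, with standard errors; filled symbols have a limma adjusted p under 0.05. Both comparisons share the day 0 libraries. Col4a1 and Col4a2 lie left of 0 at both days and Col11a2 and Col20a1 right of it.

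The ratio of partner chains is a within-library value that a scaling factor per library leaves as it is, though quantile normalization does not. Col4a1 exceeded Col4a2 by 1.78 ± 0.0332, 2.07 ± 0.0887 and 1.82 ± 0.151 times on days 0, 2 and 14 (SD, n = 3). Every day 2 library, from 2.00 to 2.17, lay above every other library, which ran from 1.67 to 1.97, and the exact permutation test of the log2 ratio, two-sided, gave p = 0.1 for day 2 against either day, the smallest p that 3 against 3 samples allow. Col4a3 to Col4a4 ran from 0.607 to 1.27 over all libraries, and Col6a1 to Col6a2 from 1.52 to 2.48. In both of these pairs the day 14 libraries also lay apart from those of day 2, with p = 0.1 by the same exact test. The log2 ratio at day 14 minus that at day 2 was 0.43 for Col4a3 to Col4a4 and -0.34 for Col6a1 to Col6a2. It was -0.19 for Col4a1 to Col4a2. Over the 9 tests of 3 pairs the lowest Benjamini-Hochberg adjusted value of the exact tests was 0.225.

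**Figure D4:**
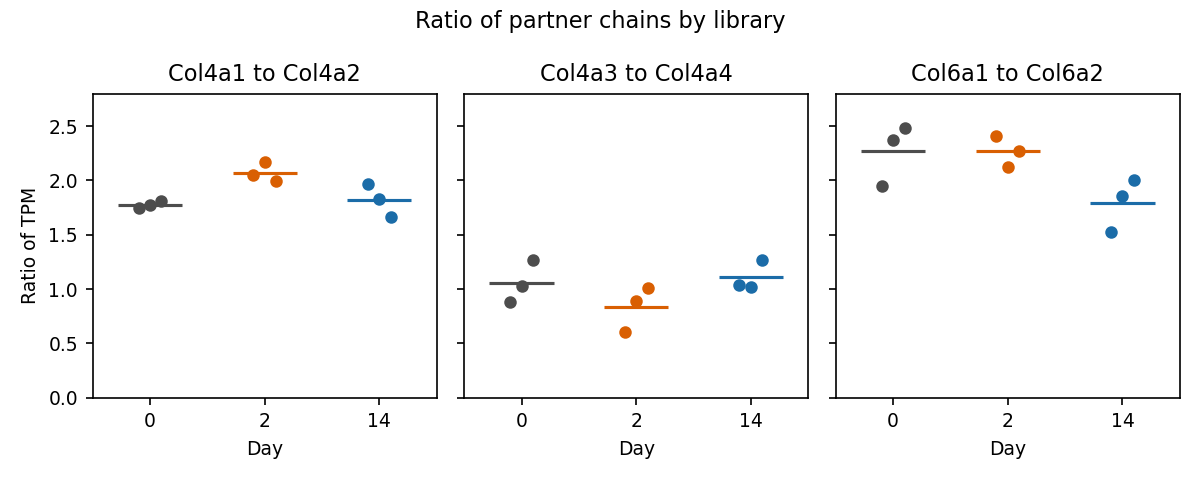
Ratio of TPM of 3 pairs of partner chains in each library, by day; points are libraries and lines are means. Col4a1 to Col4a2 is 2.00 to 2.17 in the day 2 libraries and 1.67 to 1.97 in the others.

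Fibrillar collagens were represented by minor chains. Of 11 genes of this class 3 were tested, and the major chains of connective tissue were low: Col1a1 ran from 0.122 to 0.552 TPM, Col3a1 reached at most 0.0617 TPM and Col1a2 at most 0.0313 TPM and was at 0 in 7 of 9 libraries. Col27a1, a chain known from cartilage, was the most abundant member of the class. It had 15.6, 15.4 and 15.3 TPM in the day 0 libraries, 13.1, 6.52 and 12.4 in those of day 2 and 15.5, 14.6 and 12.9 in those of day 14. All day 2 libraries lay below day 0, replicate 2 the farthest, and the log2 fold change of -0.55 at day 2 did not pass (SE 0.22, limma, adjusted p = 0.0554). It passed when day 2 replicate 1 or 3 was left out (limma, adjusted p = 0.0272 and 0.0425).

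Col11a2, another minor fibrillar chain known from cartilage, had 0.320, 0.182 and 0.165 TPM in the day 0 libraries, 2.53, 2.69 and 2.36 in those of day 2 and 2.23, 5.99 and 6.96 in those of day 14. Every library of both later days lay above every day 0 library. The mean was 11.4 times that of day 0 at day 2 and 22.7 times at day 14, with log2 fold changes of 1.53 (SE 0.30, limma, adjusted p = 0.00178) and 2.21 (SE 0.30, limma, adjusted p = 0.000328). Day 14 against day 2 did not pass (limma, adjusted p = 0.109); without day 14 replicate 1 the difference was 1.08 on the log2 scale with an adjusted p of 0.00164. Col11a1, its partner chain, reached at most 0.615 TPM, in a day 0 library.

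Col5a1, whose product regulates the start of fibril assembly, was the third tested fibrillar gene. It had 1.16, 1.125 and 1.38 TPM in the day 0 libraries, 0.878, 1.36 and 1.32 in those of day 2 and 3.41, 2.90 and 3.28 in those of day 14. Day 0 and day 2 overlapped, and day 14 lay above both. The log2 fold change at day 14 was 0.92 against day 0 (SE 0.14, limma, adjusted p = 0.000767) and 0.95 against day 2 (SE 0.14, limma, adjusted p = 0.00155). Under quantile normalization the first of these was 0.27 and did not pass (adjusted p = 0.146). Its partners Col5a2 and Col5a3 never exceeded 0.116 and 0.168 TPM.

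The largest change of any tested collagen gene was that of Col20a1, a member of the FACIT class, collagens with interrupted helices that attach to fibrils, and a chain whose function is little known. It stood at 0.354, 0.265 and 0.216 TPM at day 0, at 7.03, 5.88 and 5.89 TPM at day 2 and at 7.15, 9.48 and 9.91 TPM at day 14. No libraries of different days overlapped, and the mean was 22.5 times that of day 0 at day 2 and 31.8 times at day 14. The log2 fold changes were 2.50 (SE 0.15, limma, adjusted p = 1.88e-06) and 2.94 (SE 0.15, limma, adjusted p = 5.32e-06). In the order of mean levels it moved from place 14 among the collagen genes at day 0 to place 6 at day 2 and place 5 at day 14, where its range overlapped that of Col6a1, the next gene. Day 14 against day 2, at 0.43 on the log2 scale, did not pass (limma, adjusted p = 0.0549) and passed without day 14 replicate 1 (adjusted p = 0.0214). Arfgap1, the neighbouring gene on its upstream side, codes for a Golgi GTPase-activating protein and was chosen after its values were seen. It had means of 30.8, 28.7 and 31.4 TPM on the 3 days and was not called (limma, adjusted p = 0.415 and 0.84 against day 0). The genes Rxrb and Mff were picked out along with Arfgap1. Mff was higher than at day 0 at both later days, by 0.62 and 0.84 on the log2 scale (limma, adjusted p = 0.00893 and 0.00227). Rxrb was not called (limma, adjusted p = 0.0957 and 0.137), though its day 2 and day 14 libraries lay above day 0.

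The 250 bases before the RefSeq starts of Col20a1 and Col11a2 are shown because these were the tested collagen genes that rose at both days by more than 10-fold in mean TPM. Capitals mark ACGTG and GCGTG, the cores of HIF sites, CCAAT, the TATA box TATAAA and TGATGNAA, a core of the sites of ATF4 with C/EBP, the factors of the amino acid response, each searched on both strands; no matches overlapped in these stretches.
Col20a1, chr2:180986285-180986534, plus strand: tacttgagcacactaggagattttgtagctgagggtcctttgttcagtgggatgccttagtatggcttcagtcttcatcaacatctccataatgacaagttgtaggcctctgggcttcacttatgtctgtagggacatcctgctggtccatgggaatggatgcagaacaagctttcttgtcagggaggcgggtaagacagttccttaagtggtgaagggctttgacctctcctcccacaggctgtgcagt
Col11a2, chr17:34038888-34039137, plus strand: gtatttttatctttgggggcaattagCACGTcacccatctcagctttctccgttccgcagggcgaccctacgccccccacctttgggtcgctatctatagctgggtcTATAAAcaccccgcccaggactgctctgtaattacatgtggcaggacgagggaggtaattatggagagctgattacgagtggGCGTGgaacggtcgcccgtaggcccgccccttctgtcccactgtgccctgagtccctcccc
The Col20a1 stretch held none of these letters, which says only that they are not in this window. In Col11a2 the 2 HIF cores begin 224 and 61 bases before the start. RefSeq windows were found for 35 of the 44 genes and 12 of the 13 tested; an ACGTG or GCGTG stood in 6 of the 14 windows of tested genes, in 13 of 38 of all collagen windows and in 43.8% of all promoter windows. TGATGNAA stood in 0 of 38 collagen windows and in 3.97% of all.

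Col18a1, a collagen of the basement membrane zone whose cleaved end is endostatin, came after Col4a1 and Col4a2 in mean level at day 0 and day 14, where its range overlapped that of Col4a2. At day 2 it came after Col4a1 alone, above Col4a2 in each library and overlapping Col4a1. It stood at 75.5, 76.3 and 85.2 TPM at day 0, at 82.5, 43.6 and 74.4 TPM at day 2 and at 61.8, 53.6 and 45.4 TPM at day 14. The day 2 libraries spread across both other days, with replicate 2 the lowest of all, while the day 14 libraries lay below day 0. At day 14 the log2 fold change was -0.56 (SE 0.22, limma, adjusted p = 0.0554) and did not pass. It passed without day 2 replicate 2 (adjusted p = 0.00582), without day 2 replicate 1 (adjusted p = 0.0397) and under median-of-ratios scaling, at -0.78 (adjusted p = 0.0232). Leaving out day 2 replicate 2 also made day 14 lower than day 2, at -0.55 (adjusted p = 0.0194).

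Type VI collagen, a beaded filament around cells, was present through 2 of its chains. Col6a1 had 4.83, 5.22 and 5.595 TPM in the day 0 libraries, 9.29, 5.37 and 8.25 in those of day 2 and 11.98, 4.43 and 5.95 in those of day 14. The 3 days overlapped, and day 14 replicate 1 stood far above its 2 companions. Col6a2 showed the same libraries high, with 2.48, 2.20 and 2.26 TPM at day 0, 3.86, 2.53 and 3.63 at day 2 and 7.87, 2.39 and 2.96 at day 14. Neither gene passed in any comparison (limma, adjusted p from 0.154 to 0.828), although the day 2 libraries of Col6a2 lay above day 0. Col6a3, whose chain is needed for the usual type VI molecule, reached at most 0.131 TPM.

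Col7a1, the chain of the anchoring fibrils that tie basement membrane to the tissue below, had 1.54, 1.82 and 1.54 TPM in the day 0 libraries, 0.591, 0.505 and 0.544 in those of day 2 and 0.577, 0.838 and 1.99 in those of day 14. All day 2 libraries lay below day 0, and the day 14 libraries ran from the day 2 level to above day 0. It fell by 0.77 on the log2 scale at day 2 (SE 0.22, limma, adjusted p = 0.015), a call lost without day 0 replicate 2 (adjusted p = 0.0519). At day 14 the value was -0.36 and did not pass (limma, adjusted p = 0.199). Without day 14 replicate 3 it was -0.63 (adjusted p = 0.0102), and quantile normalization gave -0.93 (adjusted p = 0.00481).

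The other 31 collagen genes did not pass the filter: 8 fibrillar, 1 type IV and 22 of the other classes. Of these, 7 never exceeded 0.1 TPM, 19 peaked between 0.1 and 0.5 TPM, 4 between 0.5 and 1 TPM, and Col8a1, a chain of the network-forming class, peaked at 1.27 TPM. The highest library was a day 14 library for 27 of the 31, a count whose share over all rows was not computed. Their sum was 1.96 ± 0.133, 2.49 ± 0.21 and 5.67 ± 1.63 TPM on days 0, 2 and 14 (SD, n = 3). Between 26 and 29 of the 31 were above 0 in a day 14 library, against 10 to 19 at day 0 and 14 to 17 at day 2. In percent this was 83.9% to 93.5% at day 14, 32.3% to 61.3% at day 0 and 45.2% to 54.8% at day 2. Of the 11800 rows that did not pass as a whole, 42.7% to 50.2% were above 0 at day 14. For these rows it was 26.5% to 33.2% at day 0 and 31.7% to 32.7% at day 2. The collagen share was the higher in each library, and both shares were highest at day 14. Without the filter 17 collagen genes were called higher at day 14 than at day 0 and 3 lower, where 22.0% and 8.67% of all rows were. The 6 endothelial markers, all below 1 TPM, also summed to more at day 14, 0.896 to 1.69 TPM, than at day 0, 0 to 0.211 TPM, as did the leukocyte list given above. Whether depth or other cells have a part in these low values was not tested.

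**Figure D5:**
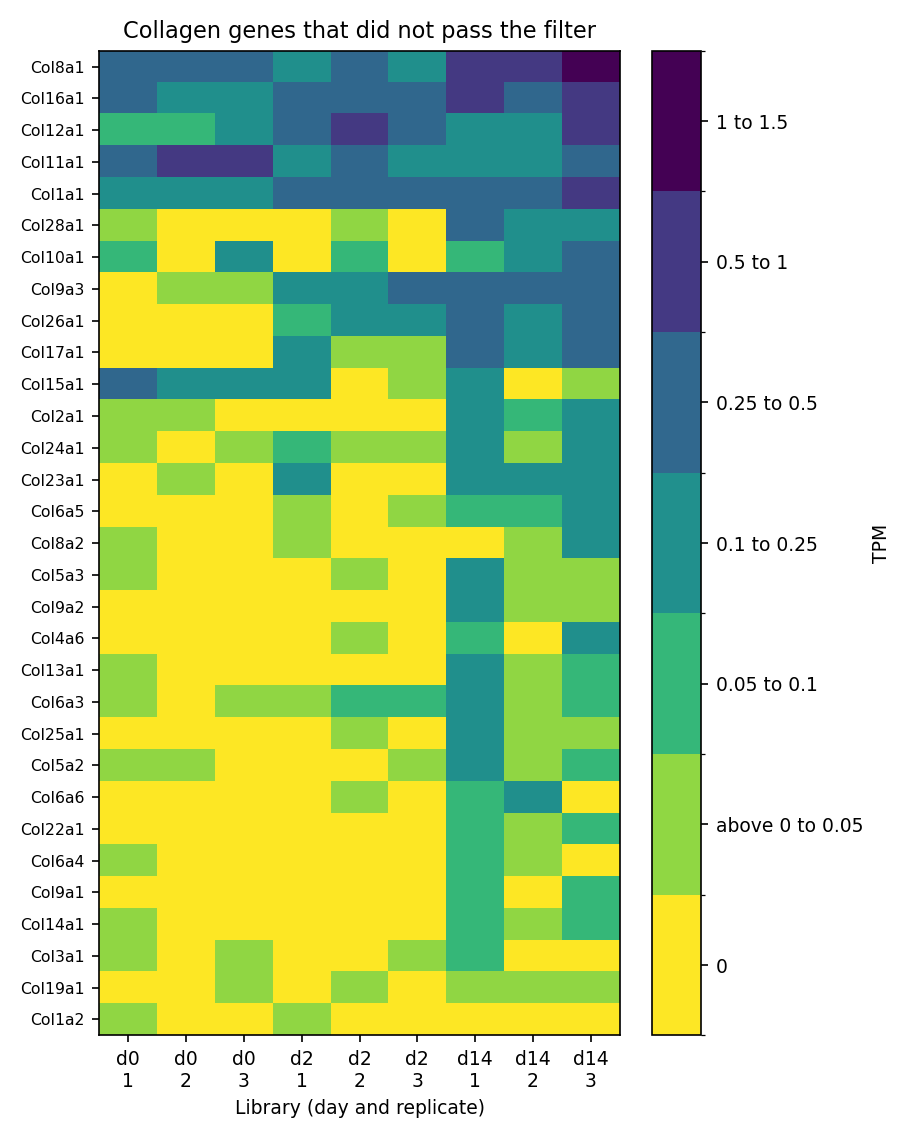
TPM of the 31 collagen genes that did not pass the filter in each library (columns, day and replicate), on a stepped colour scale from 0 (yellow) to above 1 TPM (darkest). Rows are ordered by their highest value; more rows are above 0 in the 3 day 14 columns, and only Col8a1 reaches 1 TPM.

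Some of these low genes had their own course. Col8a1 had 0.374, 0.462 and 0.490 TPM at day 0, 0.130, 0.418 and 0.224 at day 2 and 0.951, 0.948 and 1.27 at day 14, so that day 14 lay above the rest. Col15a1, the relative of Col18a1, was highest at day 0, with 0.199 to 0.367 TPM against at most 0.129 TPM later. Col12a1, a FACIT collagen, had 0.436 to 0.662 TPM at day 2 against 0.0666 to 0.203 at day 0, with day 14 overlapping day 2. Col9a3, a FACIT chain of cartilage, was at most 0.0298 TPM at day 0 and 0.120 to 0.402 TPM afterwards. These 4 genes were chosen after their values were seen.

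Genes that handle collagen chains were taken from lists written from textbook knowledge. Their counts stand beside the shares of all tested genes, 27.1% higher and 31.9% lower at day 2 and 36.2% and 18.8% at day 14 against day 0. Of 14 tested genes for hydroxylation and glycosylation of the chains, 4 rose and 6 fell at day 2, and at day 14, 4 stood above and 4 below day 0. Median-of-ratios scaling gave 5 and 6, then 4 and 7. P4ha1, a catalytic subunit of prolyl hydroxylase, rose from 14.9 ± 1.99 TPM to 114.5 ± 9.99 at day 2 and 114.3 ± 10.6 at day 14 (SD, n = 3; limma, adjusted p = 3.95e-07 and 2.87e-06). The lysyl hydroxylase gene Plod2 rose from 6.78 ± 0.953 to 96.4 ± 4.52 and 44.6 ± 3.67 TPM. Crtap, a subunit of the prolyl 3-hydroxylation complex, fell from 83.6 ± 4.42 to 46.8 ± 6.95 and 61.5 ± 6.0 TPM. The groups of P4ha1 and Plod2 did not overlap between day 0 and either later day. P3h3 was 1 of the 4 genes higher at both times. It was below 1 TPM in all day 0 libraries and passed the filter only through the later days.

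Chaperones and secretion factors of collagen also moved in both directions. Of 14 tested, 3 rose and 6 fell at day 2 (5 and 6 under median-of-ratios scaling), and at day 14, 5 stood above and 4 below day 0 (4 and 4), beside 27.1% and 31.9% of all genes, then 36.2% and 18.8%. Creb3l1, a transcription factor of the secretory pathway that is known to act on type I collagen genes, had 1.52 ± 0.428, 3.15 ± 0.515 and 8.44 ± 0.674 TPM on days 0, 2 and 14 and rose at both days (limma, adjusted p = 0.0041 and 3.98e-05). Fkbp14, a prolyl isomerase of the endoplasmic reticulum, rose from 2.83 ± 0.497 to 6.11 ± 0.833 and 11.3 ± 0.786 TPM. Fkbp10, an isomerase of the same family, fell from 80.9 ± 1.17 to 31.0 ± 1.22 and 47.0 ± 2.94 TPM.

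Of 9 tested genes for processing and cross-linking of secreted chains, 7 fell and 1 rose at day 2, and 4 were lower and 3 higher at day 14 than at day 0. Of all tested genes 31.9% fell and 27.1% rose at day 2, and 18.8% were lower and 36.2% higher at day 14. Under median-of-ratios scaling the numbers that fell and rose were 6 and 1, then 4 and 1. Pcolce2, which enhances removal of the procollagen end, fell from 63.6 ± 2.15 TPM to 2.20 ± 0.491 at day 2 and stood at 9.70 ± 3.09 at day 14 (SD, n = 3; limma, adjusted p = 7.64e-07 and 3.49e-05). Its relative Pcolce fell from 123 ± 3.52 to 44.5 ± 3.15 TPM at day 2 and stood at 87.7 ± 15.4 TPM at day 14, where the call was lost under quantile normalization (adjusted p = 0.0501). Loxl2, a lysyl oxidase that cross-links type IV collagen, rose from 15.1 ± 1.85 to 35.8 ± 3.12 and 32.6 ± 5.65 TPM (limma, adjusted p = 0.000146 and 0.000462). The related oxidase genes Loxl3 and Loxl4 were higher at day 14 than at day 0, at log2 fold changes of 0.56 and 0.41, and median-of-ratios scaling ended both calls (adjusted p = 0.0926 and 0.157). Quantile normalization ended them too and turned the direction of Loxl3, at -0.07. Furin, a protease that cleaves proproteins, and Tgm2, a transglutaminase, fell at day 2 and were higher at day 14 than at day 2, calls that median-of-ratios scaling ended for the latter comparison (adjusted p = 0.219 and 0.051). Under quantile normalization the fall of Furin at day 2 was lost (adjusted p = 0.0827).

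Of 5 tested collagen receptors, 0 passed limma at day 2, where 1 had an unadjusted p under 0.05, toward a fall, while 59.0% of all tested genes were called. At day 14 against day 0, 1 was higher and 0 lower (1 and 2 under median-of-ratios scaling), with 2 and 0 at an unadjusted p under 0.05 and 55.1% of all genes called. Itga2, an integrin subunit that binds collagen, had 32.7 ± 6.23, 32.3 ± 3.23 and 25.4 ± 6.61 TPM on the 3 days, and Itga1 had 7.46 ± 1.01, 5.51 ± 1.09 and 5.86 ± 0.783. Itga10, which passed the filter only through its day 14 values, was the 1 receptor gene called at day 14 against day 0, at 1.28 ± 0.139 against 0.577 ± 0.162 TPM (limma, adjusted p = 0.0123), a call that quantile normalization ended with the direction turned, at -0.06. Ddr1, a receptor tyrosine kinase activated by collagen, had a log2 fold change of 0.52 from day 2 to day 14 (limma, adjusted p = 0.00951), lost under median-of-ratios scaling (adjusted p = 0.129).

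Of 8 tested genes of collagen breakdown and its inhibitors, 7 fell and 0 rose at day 2 (5 and 0 under quantile normalization), and 3 were lower and 0 higher at day 14 than at day 0. At an unadjusted p under 0.05, 0 rose at day 2 and 1 was higher at day 14. Of all tested genes 31.9% fell and 27.1% rose at day 2, and 18.8% were lower and 36.2% higher at day 14. Under quantile normalization 27.4% of all fell and 29.4% rose at day 2. Mmp14, a membrane-bound collagenase, fell from 81.9 ± 7.30 to 33.5 ± 5.92 TPM and stood at 47.0 ± 10.8 TPM at day 14 (limma, adjusted p = 0.000276 and 0.00442). The protease inhibitor genes Timp1, Timp2 and Timp3 fell at day 2, with log2 fold changes of -2.11, -0.84 and -1.36, and at day 14 Timp2 and Timp3 stood at 211 ± 37.6 and 106 ± 30.1 TPM, above day 2. Timp1 stood at 29.4 ± 15.8 TPM at day 14, below day 0 (log2 fold change -1.36, limma, adjusted p = 0.00847) and not called against day 2 (adjusted p = 0.126). The call of Timp2 at day 2 was lost under quantile normalization (adjusted p = 0.0601). Pepd, the peptidase that frees proline from collagen fragments, fell from 68.1 ± 2.97 to 36.1 ± 3.06 TPM at day 2 and stood at 72.4 ± 10.6 TPM at day 14. Prep, a peptidase that cuts after proline, had 119 ± 3.63, 71.2 ± 24.6 and 57.2 ± 19.2 TPM, and its day 2 call was lost under quantile normalization (adjusted p = 0.218) and with the 20 most abundant rows removed (adjusted p = 0.0769). Mmp15, another membrane-bound metalloprotease, had 8.90 ± 1.29, 15.7 ± 5.45 and 21.6 ± 12.6 TPM and did not pass.

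Of the 13 tested partners of type IV collagen in the basement membrane, 4 rose and 5 fell at day 2 (5 and 4 under median-of-ratios scaling), and at day 14, 5 stood above and 4 below day 0, near the 27.1% and 31.9%, then 36.2% and 18.8%, of all genes. Sparc, a secreted protein that binds type IV collagen, fell from 19.5 ± 0.762 to 7.79 ± 0.79 and 2.93 ± 0.757 TPM (limma, adjusted p = 0.000171 and 1.53e-05). The laminin chain genes Lama3 and Lamb2 were higher at day 14 than at day 0, at 3.67 ± 0.337 against 0.547 ± 0.294 TPM and 59.8 ± 16.4 against 28.1 ± 1.32 TPM. Lama3 was below 1 TPM in all day 0 libraries and passed the filter only through the later days.

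Among 15 tested genes of TGF-beta signalling, a pathway known to raise collagen expression, 8 rose and 1 fell at day 2. At day 14, 9 stood above and 0 below day 0, with 0 lower at an unadjusted p under 0.05 as well. Of all tested genes 27.1% rose and 31.9% fell at day 2, and 36.2% were higher and 18.8% lower at day 14. Under median-of-ratios scaling 8 stood above and 1 below day 0 at day 14, beside 27.2% and 28.8% of all. In the main fit, 4 were higher and 3 lower at day 14 against day 2, beside 27.4% and 3.79% of all. The list pools ligands, receptors, other pathway genes and targets and was not split into activators and inhibitors. Its counts therefore give no direction of signalling. The fibronectin gene Fn1 had 90.7 ± 28.8, 249.9 ± 50.5 and 260.6 ± 33.7 TPM, and Ltbp1, which stores the ligand in the matrix, rose from 7.05 ± 0.69 to 10.4 ± 1.12 and 16.6 ± 1.24 TPM. Ctgf, the 1 gene that fell at day 2, had 172.7 ± 28.4, 39.7 ± 12.1 and 310 ± 55.7 TPM (limma, adjusted p = 5.85e-05 and 0.0128 against day 0).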

How the data were processed

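Total RNA of 9 samples was sequenced, and transcripts were quantified with Salmon, per the submitters' processing notes. The deposited values are gene TPM, scaled by the authors within each sample to a total of 1000000. Salmon's version is not given in the sources used here, nor are its index, genome build or annotation. Depth is unknown, so no counting interval is given. Members and lists were chosen with earlier results of these data known.

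Rows reaching 1 TPM in 3 or more samples (12693 of 24493) were fitted as log2(TPM + 1) in limma 3.58.1 (R 4.3.3), with a mean per day and moderated variances with a trend, and p-values, two-sided, were adjusted by Benjamini and Hochberg. The fit was tested on simulated data. All collagen genes that passed were named; of each other list, the pair that changed most from day 0 to day 14, the largest opposite change, and all called members where 5 or fewer were called. A gene that this rule names is not reported here. Type IV chains were taken as the basement membrane class. Promoter windows are RefSeq's (GRCm38.p6), matched by symbol. Alternatives were a pseudocount of 0.1 or 5, dropping the filter, a minimum mean of 5 TPM, other scalings, other variance models, a replicate block, only the groups compared, and each library left out. Removal of Mir6236 and Rn45s was added after the data were seen. Figures were drawn with matplotlib 3.10.9.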

Additional observations from a re-analysis of the deposited data

Results flagged for a closer look

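For 6 collagen genes the change from day 0 differed between day 2 and day 14, tested as day 14 against day 2 (limma, adjusted p under 0.05). The difference on the log2 scale was 0.45 for Col4a1, 0.63 for Col4a2, 1.54 for Col4a3, 1.32 for Col4a4, 0.87 for Col4a5 and 0.95 for Col5a1, each higher at day 14, where the median of all tested genes was 0.25. The differences of Col4a1 and Col4a2 did not pass with the libraries scaled by median ratios or quantile-normalized, and that of Col4a5 did not under the latter. The difference of Col4a1 did not pass either once the 20 most abundant rows, or Mir6236 and Rn45s, were removed. Those of Col4a3, Col4a4 and Col5a1 passed under all 4 of these. Col4a3 and Col4a4 passed the expression filter only through their day 0 and day 14 values.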

How the results depend on the processing

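Of 837 recomputed values of single collagen genes, 781 kept their side of the threshold, 34 crossed into the threshold and 22 fell out of it. Among values called in the main fit or in the alternative, 0 reversed. A turn of direction in a value called in neither was not counted. Counts of called collagen genes (8 for day 2 and 6 for day 14 against day 0, and 6 between day 2 and day 14) moved with the filter. A mean of at least 5 TPM, which leaves fewer genes, gave 3 (1 higher, 2 lower), 3 (1 higher) and 2 (2 higher). Of all genes then tested 24.5% were higher and 36.8% lower at day 2. At day 14, 31.7% were higher and 21.9% lower than at day 0, and 29.1% higher than at day 2. No filter gave 5 higher at day 2 and 20 called (17 higher) at day 14 against day 0. Against day 2 it gave 13 called (13 higher) at day 14. Of all rows 13.4%, 22.0% and 13.9% were higher in these comparisons. At day 14 against day 0 sample weights gave 10 called and 4 lower, beside 42.8% of all tested genes higher and 24.8% lower. In that comparison 7 were higher with the 20 most abundant rows removed, beside 39.8% of all. Removal of Mir6236 and Rn45s also gave 7 higher, beside 39.1% of all. Quantile normalization gave 3 called and 3 higher at day 14 against day 2, beside 11.6% of all genes higher and 15.0% lower. For the shift of counts under weights, row removal and quantile normalization the cause was not tested. Leaving out single libraries gave 6 to 8 called in each comparison. It gave 0 to 1 lower at day 14 against day 2 (Col18a1, without day 2 replicate 2), beside 2.58% to 3.65% of all genes.

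Summed TPM at day 0, day 2 and day 14 became 449, 313 and 362 for all collagen genes, 22.2, 21.4 and 30.8 for fibrillar, 314, 168 and 227 for type IV and 113, 123 and 104 for other genes with the 20 most abundant rows removed, which enlarges every remaining value. Without Mir6236 and Rn45s the total was 397, 266 and 318. Median-of-ratios scaling gave 371 at day 0 and 248 at day 14 for all, 18.4 and 21.1 for fibrillar and 259 and 156 for type IV genes. The day 2 mean for all genes moved by less than its SD of 37.3. Under this scaling the sums of all collagen genes in the day 2 and day 14 libraries overlapped, with a size factor of 0.861 for day 2 replicate 3. A fit with the replicate block, tried because groups share replicate numbers, gave 7, 8 and 6 called genes: Col4a5 was lost at day 2 (adjusted p = 0.0568), and Col4a3 and Col18a1 were gained at day 14 (0.0264 and 0.0488). The labels do not say that numbers pair samples. With each day's mean taken off every gene, same-numbered samples of different days correlated at -0.0709 to 0.318. Differently numbered ones gave -0.265 to 0.224. For 4 of 9 samples the highest of these values was with the same number, a count not tested against chance.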
